A study of Mus musculus with 18 samples.

Results

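Cathepsins A, B, C, D, L, S and Z, tripeptidyl peptidase 1 and legumain are the lysosomal proteases described here, through the mRNAs Ctsa, Ctsb, Ctsc, Ctsd, Ctsl, Ctss, Ctsz, Tpp1 and Lgmn. They were chosen as a list of gene symbols, and 9 of the 9 symbols had a row among the 11243 protein-coding genes counted. The data are RNA sequencing of polysome profiles from RAW264.7 cells, a mouse macrophage-like line transformed by Abelson leukemia virus, so that all samples come from 1 line. Control cells received the vehicle DMSO, for a time that the labels do not give sample by sample. LPS cells received 500 ng/mL Salmonella lipopolysaccharide for 6 h. LPS+torin1 cells were first given 100 nM torin1, an inhibitor of the kinase mTOR, for 15 min, and then the same LPS treatment. Torin1 without LPS was not analysed here, so every comparison with torin1 is in LPS-treated cells. Each of the 9 lysates, from 3 independent experiments, was sequenced as total mRNA and as heavy polysome mRNA, the pool of transcripts sedimenting with many ribosomes.

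Lysosomal proteases are made as inactive precursors in the endoplasmic reticulum, sorted to lysosomes largely through mannose 6-phosphate receptors, and activated in the acidic lumen. In macrophages they degrade phagocytosed and autophagic cargo, trim the invariant chain of MHC class II and cut antigens into peptides. Many of their genes carry binding sites for TFEB and TFE3, transcription factors that mTOR complex 1 keeps in the cytoplasm. LPS signals through Toll-like receptor 4 and also activates mTOR.

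Upstream sequences are shown for some of the members, as examples of different courses. They are from the RefSeq sequences of build GRCm38.p6, where 8 of the 9 members were matched, all but Ctsb. Those of Ctsc, the mRNA that LPS raised and torin1 lowered, of Ctsd, the mRNA that torin1 raised most, of Ctsa, raised with torin1 and not with LPS, and of Ctss, raised in both comparisons, are shown for the 250 bases before the start site. Capitals mark matches to CACGTG (the E-box), TCACGTG (the core of the CLEAR element that TFEB binds, which overlaps the E-box by construction), TTCNNNGAA (a GAS, bound by STAT factors) and GAAANNGAA (part of an ISRE, bound by interferon regulatory factors), all searched on both strands. The stretches are chr7:88277835-88278084 on the plus strand for Ctsc, chr7:142387828-142388077 on the minus strand for Ctsd, chr2:164833523-164833772 on the plus strand for the downstream of 2 listed starts of Ctsa, and chr3:95526536-95526785 on the plus strand for Ctss.
Ctsc: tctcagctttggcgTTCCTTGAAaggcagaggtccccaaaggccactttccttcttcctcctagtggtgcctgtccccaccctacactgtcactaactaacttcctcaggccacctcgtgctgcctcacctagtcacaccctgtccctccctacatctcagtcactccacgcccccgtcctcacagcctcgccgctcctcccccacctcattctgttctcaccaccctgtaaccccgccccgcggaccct
Ctsd: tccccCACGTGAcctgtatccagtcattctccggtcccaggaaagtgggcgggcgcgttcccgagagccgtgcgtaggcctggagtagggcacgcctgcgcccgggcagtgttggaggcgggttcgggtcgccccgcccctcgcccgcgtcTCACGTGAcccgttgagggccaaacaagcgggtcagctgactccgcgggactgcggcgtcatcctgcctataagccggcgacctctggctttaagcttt
Ctsa: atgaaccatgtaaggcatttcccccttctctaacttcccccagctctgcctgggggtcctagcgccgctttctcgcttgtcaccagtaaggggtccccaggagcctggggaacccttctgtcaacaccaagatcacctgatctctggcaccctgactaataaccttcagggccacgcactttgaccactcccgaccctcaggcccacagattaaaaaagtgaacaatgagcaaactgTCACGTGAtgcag
Ctss: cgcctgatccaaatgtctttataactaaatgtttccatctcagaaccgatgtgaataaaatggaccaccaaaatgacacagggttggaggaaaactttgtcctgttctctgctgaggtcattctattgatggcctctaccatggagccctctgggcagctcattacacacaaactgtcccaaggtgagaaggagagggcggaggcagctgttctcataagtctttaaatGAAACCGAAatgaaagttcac

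In windows from 250 bases before to 50 bases after the start, the Ctsd promoter held the E-box at 245 and 98 bases before the start, and both matches were also CLEAR cores. The downstream Ctsa promoter held one 12 bases before its start, which is shown, and another 5 bases after it. Lgmn had an E-box that was a CLEAR core in 1 of its 2 listed promoters, and Ctsl had an E-box without the added base. Ctsz, Tpp1, the upstream Ctsa promoter and the other Lgmn promoter held no match to any of the motifs. Ctsc and Ctss held no E-box. Tpp1, not shown, took the course of Ctsa. Torin1 raised Tpp1 by 0.66 in total and 0.58 in polysome mRNA (log2), beside 0.52 and 0.42 for Ctsa. Over the members, 4 of 10 listed promoters held an E-box and 3 of 10 a CLEAR core. The shares were 7.15% and 3.77% of all 32851 promoters of the same length. They were 10.1% and 6.07% of the 10924 promoters of counted genes, and 20.4% and 19.4% of the 98 promoters of other lysosome pathway genes. Ctsc had the only GAS match, a motif in 8.3% of all promoters and 6.87% of those of counted genes. Ctss had the only ISRE match, a motif in 8.56% and 7.26%. A match states only that the letters are in the window, and these data do not measure binding.

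The libraries held 27801000 to 47725600 counts. Levels are CPM, the counts scaled to a fixed library size with TMM factors, in the order of experiments 1, 2 and 3. The 9 mRNAs were well covered, since the lowest count of any member in any library was 2663, for Tpp1, and the highest 351691, for Ctsb. All 9 macrophage markers tested had a row, from 12383 to 13474 summed CPM in control total mRNA. No listed T cell, B cell, epithelial or fibroblast marker had a row, in a table from which genes with 0 counts in any sample had been dropped, and 1 endothelial marker, Cdh5, had one, at up to 1.45 CPM. LPS raised Il1b by 9.85, Ptgs2 by 6.38 and Tnf by 3.21 (log2 fold change in total mRNA). A change was called at a false discovery rate of 0.25, the threshold the study used, with edgeR's quasi-likelihood test adjusted over all 11243 genes. Because the RNA is from bulk lysates, a change in the number of cells of a type and a change in RNA per cell cannot be told apart.

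The members took up 0.835% to 1.02% of the counts in control total mRNA, 0.993% to 1.07% with LPS and 1.40% to 1.65% with LPS+torin1. In heavy polysome mRNA the share was 1.03% to 1.11%, then 1.24% to 1.28%, then 1.68% to 2.08%. In polysome mRNA the 3 treatments did not overlap in this share, whereas in total mRNA control experiment 2 lay within the range of the LPS libraries. Ctsb and Ctsd together supplied 49.3% to 54.7% of the members' counts in control total mRNA and 57.2% to 60.5% with LPS+torin1.

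**Figure D1:**
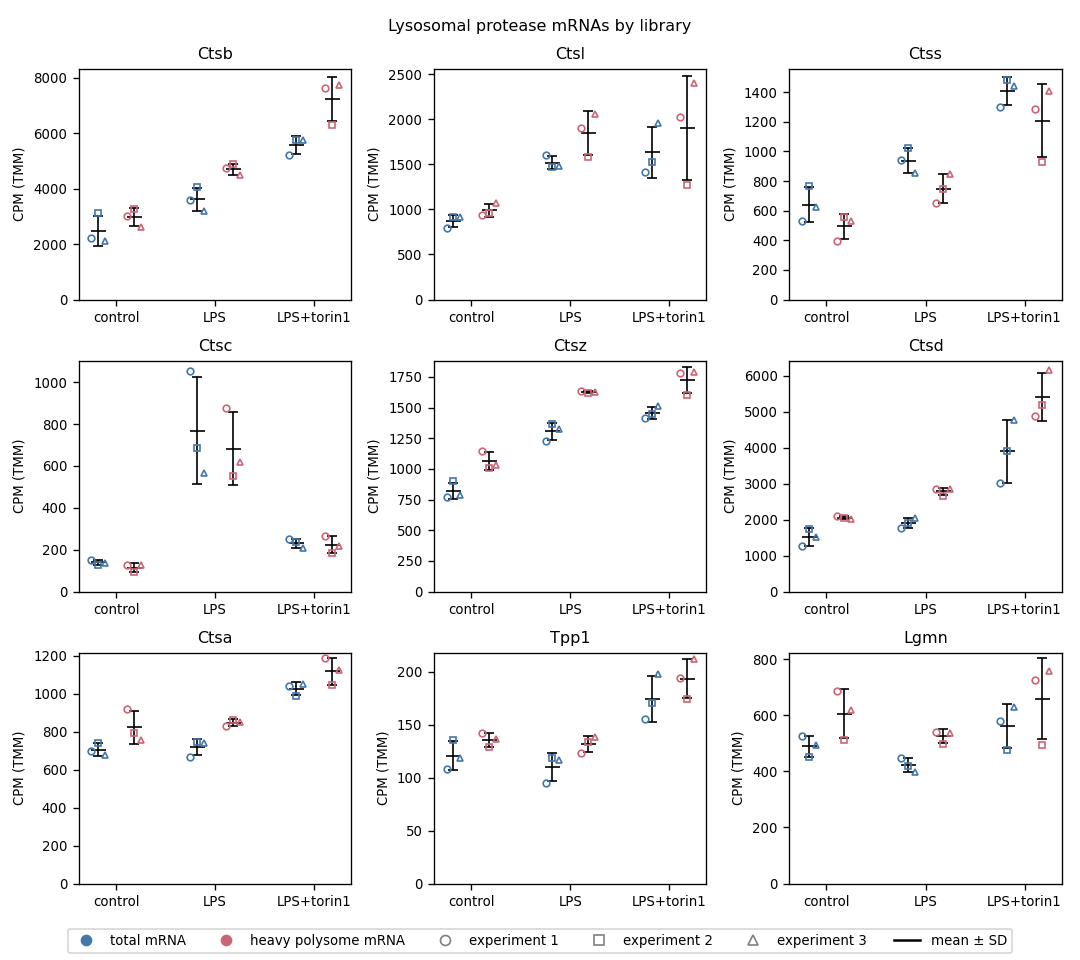
Level of each protease mRNA in every library, in CPM after TMM scaling on a linear axis from 0, for total mRNA (blue) and heavy polysome mRNA (red) under control, LPS and LPS+torin1; symbols are the 3 experiments and bars the mean ± SD. Ctsc stands high only with LPS, Ctsb, Ctss and Ctsd climb from control through LPS to LPS+torin1, and Ctsa and Tpp1 stand higher only with LPS+torin1.

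Per kilobase of annotated exon, Ctsd ranked first in 5 of the 6 groups and second to Ctsz in total mRNA with LPS. In control total mRNA, Ctsd stood at 641 ± 104.5 CPM per kb (SD, n = 3), Ctsz at 569 ± 47.5 and Ctss at 471 ± 87.5. Each of these overlapped its neighbour in the order, so that their ranks were not separated at n = 3. The lowest per-kilobase levels were those of Ctsc, at 23.9 ± 2.10 CPM per kb, and Tpp1, at 23.4 ± 2.68, which also overlapped. With LPS, Ctsc rose to 132 ± 43.8 CPM per kb in total mRNA while Tpp1 stood at 21.3 ± 2.54, and these ranges did not overlap. The place of Ctsl in the order depended on the length used. It stood at 234 CPM per kb with LPS over its 6489 annotated exon bases and at 769.5 over the 1971 bases of its shortest principal transcript. The closeness of Ctsc and Tpp1 in control total mRNA also depended on it. Over principal transcripts they stood at 55.7 and 34.0 CPM per kb.

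LPS raised 6 of the 9 mRNAs in both RNA pools, led by Ctsc at 5.54-fold in total and 5.96-fold in polysome mRNA, and the other 5 by 1.26-fold to 1.86-fold; of these 6 directions only that of Ctsd in total mRNA turned under any scaling tried, to a log2 fold change of -0.03 with library totals alone. In total mRNA 6 members were called higher, where 32.2% of all genes were, and 1, Lgmn, was called lower, where 34.3% of all genes were. In polysome mRNA 6 were called higher, against 26.4% of all genes, and 0 lower, against 28.7%. The median member changed by 0.54 in total and 0.60 in polysome mRNA (log2), beside medians of -0.02 and -0.03 over all genes. Scaling by library totals moved the median gene by -0.37 in total and -0.35 in polysome mRNA and left 4 members higher and 3 lower in each pool. Under it the share of higher genes among all genes called went from 48.4% to 19.8% in total mRNA and from 47.9% to 20.1% in polysome mRNA.

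Torin1 in LPS-treated cells lowered Ctsc 3.34-fold in total and 3.00-fold in polysome mRNA, and raised Ctsa, Ctsb, Ctsd, Ctss, Lgmn and Tpp1 in both pools, by 1.27-fold to 2.05-fold, with no reversal of these 7 directions under any scaling tried. That is 6 members higher and 1 lower in each pool. In total mRNA 27.3% of all genes were called higher and 26.4% lower, and in polysome mRNA 20.3% and 18.2%. The median member changed by 0.52 in total and 0.42 in polysome mRNA, beside medians of 0.00 over all genes in both. Without experiment 1 only 3 members were called in polysome mRNA, and without experiment 3 only 2, Ctsc and Ctsd. Calls over all 11243 genes fell in the same steps, from 4322 to 1782 without experiment 1 and to 1187 without experiment 3. Ctsl and Ctsz were not called in either pool. The LPS libraries serve in both this comparison and the one with control, so that the values of a gene in the 2 comparisons are not independent and are set side by side here without a measure of their relation.

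**Figure D2:**
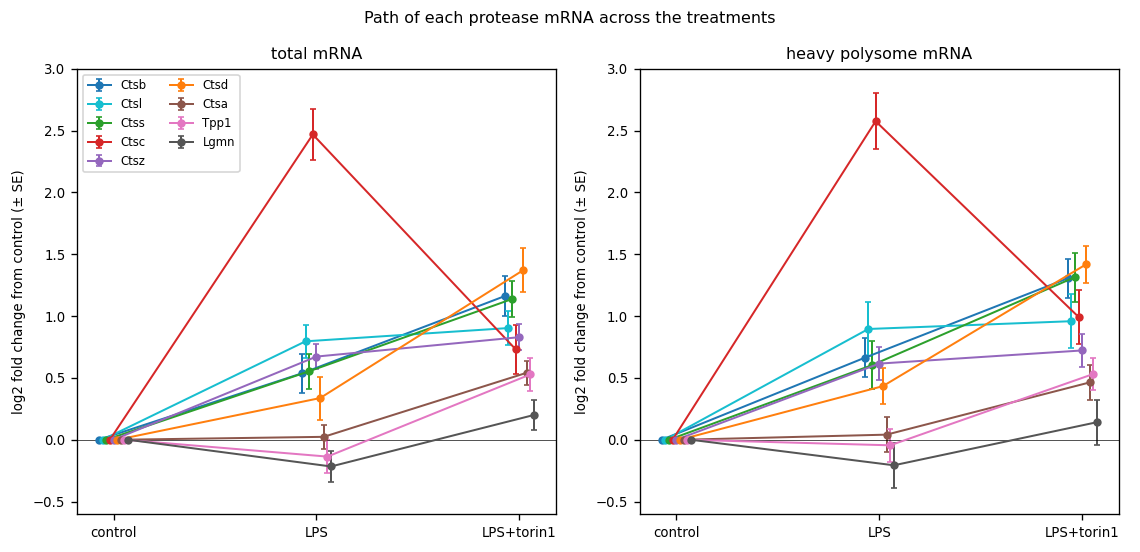
Fitted log2 fold change from control, ± SE, of each protease mRNA with LPS and with LPS+torin1 after TMM scaling, in total mRNA (left) and heavy polysome mRNA (right); control is 0 by definition. Ctsc goes to 2.47 and 2.58 with LPS and back to 0.73 and 0.99 with LPS+torin1, while Ctsd ends highest at 1.37 and 1.42; with library totals alone Ctsd in total mRNA and Ctsa in both pools lie below 0 with LPS, and Lgmn in both pools with LPS+torin1.

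With LPS+torin1 against control, 9 of 9 members were called higher in total mRNA, where 33.1% of all genes were called higher and 33.6% lower, and the direction turned only for Lgmn, to -0.10 with library totals alone. In polysome mRNA 8 were called higher and 0 lower, where 28.5% of all genes were called higher and 29.7% lower. The largest differences were those of Ctsd, Ctsb and Ctss. The Lgmn call (0.20 ± 0.12, adjusted p = 0.206) was lost without experiment 1 (adjusted p = 0.274) or without experiment 3 (adjusted p = 0.636), with upper quartile factors (0.10, adjusted p = 0.527) and with all 18 libraries in 1 model (adjusted p = 0.339). That of Ctsa in polysome mRNA was lost without experiment 3 (adjusted p = 0.259) and with library totals alone (0.18, adjusted p = 0.321). The median member stood 0.83 above control in total and 0.96 in polysome mRNA (log2), beside 0.00 and -0.01 over all genes.

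Among the cathepsins of the list, Ctsb, Ctsl and Ctss are the cysteine endopeptidases. Ctsb, which also trims peptides from their carboxyl end, was the most abundant member in counts. In total mRNA its level was 2227, 3110 and 2128 CPM in control, 3576, 4051 and 3204 with LPS and 5196, 5763 and 5744 with LPS+torin1. The 3 groups did not overlap, although control experiment 2 came close to the lowest LPS library. LPS raised Ctsb by 0.54 ± 0.16 (log2 fold change ± SE, adjusted p = 0.0182) and torin1 raised it further by 0.62 ± 0.16 (adjusted p = 0.0149). In polysome mRNA its level was 3017, 3270 and 2611 CPM in control, 4725, 4888 and 4478 with LPS and 7623, 6300 and 7733 with LPS+torin1. There too the groups were separate, and the changes were 0.66 ± 0.16 (adjusted p = 0.00832) and 0.64 ± 0.16 (adjusted p = 0.0230). The polysome call with torin1 was lost without experiment 1 (adjusted p = 0.254) and without experiment 3 (adjusted p = 0.289), and the total mRNA call with LPS with library totals alone (0.17, adjusted p = 0.341).

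Ctss, which cleaves the invariant chain in antigen-presenting cells and keeps activity at neutral pH, followed the same course. Its total mRNA stood at 528, 764 and 627 CPM in control, 943, 1022 and 851 with LPS and 1300, 1479.5 and 1444 with LPS+torin1. No library of one treatment reached those of the next. LPS raised it by 0.55 ± 0.14 (adjusted p = 0.00904) and torin1 by a further 0.58 ± 0.14 (adjusted p = 0.0123). In polysome mRNA it stood at 395, 555 and 530 CPM in control, 655, 749 and 845 with LPS and 1285, 932 and 1410 with LPS+torin1. The polysome changes were 0.60 ± 0.20 (adjusted p = 0.0380) and 0.71 ± 0.20 (adjusted p = 0.0377), the second of which varied from 0.31 in experiment 2 to 0.97 in experiment 1 and was not called without experiment 1 (adjusted p = 0.283) or without experiment 3 (adjusted p = 0.272). The polysome LPS call was lost with library totals alone (adjusted p = 0.342) and with scaling to Ppia (adjusted p = 0.280).

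Ctsl, an endopeptidase of broad cargo in most tissues, rose with LPS and did not move further by a detectable amount with torin1. Total Ctsl mRNA stood at 796, 913 and 911 CPM in control, 1599.5, 1467 and 1483 with LPS and 1415, 1529 and 1958 with LPS+torin1. Every LPS library lay above every control library, while the LPS and LPS+torin1 libraries interleaved. The LPS change was 0.80 ± 0.13 in total mRNA (adjusted p = 0.000784) and 0.90 ± 0.22 in polysome mRNA (adjusted p = 0.00952). The torin1 difference was 0.11 ± 0.13 in total mRNA, with a 95% interval from -0.19 to 0.40, and 0.06 ± 0.22 in polysome mRNA, with an interval from -0.41 to 0.54. Of the alternatives only scaling to Ppia called it, in total mRNA (0.29, adjusted p = 0.237). In polysome mRNA with LPS+torin1 the levels were 2027, 1271 and 2404 CPM, so that experiment 2 stood apart from the others.

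Ctsc and Ctsz are cysteine exopeptidases. Ctsc, or dipeptidyl peptidase I, removes dipeptides from amino ends and activates the granule serine proteases of leukocytes. In total mRNA it stood at 152, 127 and 138 CPM in control, 1055, 685 and 567 with LPS and 249.3, 236 and 206 with LPS+torin1. The lowest LPS library was above every other library, and LPS+torin1 stayed above control in every experiment. LPS raised Ctsc by 2.47 ± 0.21 (adjusted p = 1.02e-05), and torin1 changed it by -1.74 ± 0.20 (adjusted p = 0.000333). With LPS+torin1 it remained 0.73 ± 0.20 above control (adjusted p = 0.0119). In polysome mRNA it stood at 127, 91.3 and 124.6 CPM in control, 879, 551 and 619 with LPS and 267, 186 and 219 with LPS+torin1. The polysome changes were 2.58 ± 0.23 with LPS (adjusted p = 2.26e-05), -1.58 ± 0.22 with torin1 (adjusted p = 0.00181) and 0.99 ± 0.22 for LPS+torin1 against control (adjusted p = 0.00497). These calls held in each of the 13 alternatives run per comparison, with a log2 fold change from 2.09 to 2.64 for LPS in total mRNA and from -1.84 to -1.50 for torin1. The size of the LPS response varied between experiments, from 2.80 in experiment 1 to 2.04 in experiment 3 in total mRNA.

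Ctsz, a carboxypeptidase that removes single residues, rose with LPS. In polysome mRNA its level was 1146, 1011 and 1028 CPM in control, 1636, 1623 and 1625 with LPS and 1779.5, 1605 and 1788 with LPS+torin1. LPS libraries were all above control, and the LPS+torin1 libraries lay on both sides of the LPS libraries. The LPS change was 0.62 ± 0.13 in polysome mRNA (adjusted p = 0.00545) and 0.67 ± 0.10 in total mRNA (adjusted p = 0.000426). In total mRNA the torin1 difference was 0.16 ± 0.10 and not called (adjusted p = 0.277), although it was positive in 3 of 3 experiments and was called with the experiment as a block (adjusted p = 0.166), with upper quartile factors (0.19, adjusted p = 0.182), with library totals alone (0.22, adjusted p = 0.123) and with scaling to Ppia (0.33, adjusted p = 0.0770). In polysome mRNA it was 0.11 ± 0.13 and called only with scaling to Ppia (0.41, adjusted p = 0.180).

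Ctsd, the main aspartic protease of lysosomes, showed the largest rise with torin1. Total Ctsd mRNA stood at 1257, 1748 and 1515 CPM in control, 1768, 1911.5 and 2030 with LPS and 3026, 3901.5 and 4763 with LPS+torin1. Control experiment 2 nearly reached the lowest LPS library, whereas the LPS+torin1 libraries were all above the others. The LPS change of 0.34 ± 0.17 was called at the threshold of 0.25 (adjusted p = 0.140), had a 95% interval from -0.05 to 0.72, and was not called without experiment 3 (adjusted p = 0.338) or with upper quartile factors (0.20, adjusted p = 0.366). The torin1 change was 1.03 ± 0.18 (adjusted p = 0.00228). In polysome mRNA it stood at 2097, 2054 and 2018 CPM in control, 2841, 2663 and 2834.5 with LPS and 4881, 5170 and 6164 with LPS+torin1. Here the 3 groups were well separated, with changes of 0.43 ± 0.15 for LPS (adjusted p = 0.0431) and 0.98 ± 0.15 for torin1 (adjusted p = 0.00267). The LPS change in polysome mRNA was lost without experiment 3 (adjusted p = 0.260) with library totals alone (adjusted p = 0.674) and with scaling to Ppia (adjusted p = 0.527). In the annotation a same-strand gene, Gm49369, shares 34.4% of the exon bases of Ctsd, so that reads in that stretch may have been left out or split.

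Ctsa and Tpp1 are the serine proteases of the list. Ctsa, the protective protein that stabilises neuraminidase 1 and beta-galactosidase, did not change by a detectable amount with LPS and rose with torin1. In total mRNA it stood at 700, 741 and 676 CPM in control, 669, 744 and 738 with LPS and 1041, 987 and 1053 with LPS+torin1. Control and LPS libraries interleaved, and LPS+torin1 lay above both. The LPS difference was 0.02 ± 0.10, with a 95% interval from -0.19 to 0.23, and became a call in the other direction only with library totals alone (-0.34, adjusted p = 0.0131). The torin1 change was 0.52 ± 0.10 in total mRNA (adjusted p = 0.00348) and 0.42 ± 0.14 in polysome mRNA (adjusted p = 0.0706), and the second was not called without experiment 1 (adjusted p = 0.382) or without experiment 3 (adjusted p = 0.418). In polysome mRNA the levels were 922, 794 and 757 CPM in control, 830, 862 and 853 with LPS and 1186, 1045 and 1125 with LPS+torin1. The polysome LPS difference was 0.04 ± 0.14, and -0.31 with library totals alone (adjusted p = 0.0850).

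Tpp1, which takes tripeptides from amino ends and is mutated in a neuronal ceroid lipofuscinosis, had the lowest level per kilobase of exon in every group but control polysome mRNA, where Ctsc was lower. Over principal transcripts Tpp1 was the lowest there too, at 38.2 CPM per kb beside 45.8 for Ctsc. In total mRNA it stood at 108, 135.6 and 118.8 CPM in control, 94.8, 118.1 and 116.9 with LPS and 155, 170 and 198 with LPS+torin1. The LPS+torin1 libraries were above all others, and those of control and LPS overlapped. The torin1 change was 0.66 ± 0.13 in total mRNA (adjusted p = 0.00539) and 0.58 ± 0.13 in polysome mRNA (adjusted p = 0.0173), the latter lost without experiment 3 (adjusted p = 0.261). With LPS the total mRNA differed by -0.14 ± 0.13 (adjusted p = 0.437), which was lower in 3 of 3 experiments and was called with the experiment as a block (adjusted p = 0.212), with upper quartile factors (-0.27, adjusted p = 0.133) and with library totals alone (-0.50, adjusted p = 0.00933). In polysome mRNA its levels were 142, 128.9 and 137 CPM in control, 123.2, 134 and 139 with LPS and 194, 175 and 212 with LPS+torin1, and the LPS difference was -0.04 ± 0.13, which library totals alone turned into a call (-0.40, adjusted p = 0.0305).

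Lgmn, the asparaginyl endopeptidase that also processes cathepsin precursors, was the only member called lower with LPS, and the call was marginal. Total Lgmn mRNA stood at 526, 450 and 492 CPM in control, 447, 420 and 397 with LPS and 581, 476 and 631 with LPS+torin1. LPS libraries lay below control libraries in each experiment, and control and LPS+torin1 overlapped. The LPS change was -0.22 ± 0.12 in total mRNA (adjusted p = 0.175), lost without experiment 1 (adjusted p = 0.388) or without experiment 3 (adjusted p = 0.466), and also with all 18 libraries in 1 model (adjusted p = 0.303) or with scaling to Ppia (adjusted p = 0.266). In polysome mRNA the difference was -0.21 ± 0.18 and not called (adjusted p = 0.427). It was called in 4 of 13 alternatives, at -0.33 with upper quartile factors (adjusted p = 0.189), -0.56 with library totals alone (adjusted p = 0.0263), -0.29 without experiment 2 (adjusted p = 0.140) and -0.46 with scaling to Ppia (adjusted p = 0.166). Torin1 raised it by 0.42 ± 0.12 in total mRNA (adjusted p = 0.0282), a call lost without experiment 3 (adjusted p = 0.303). In polysome mRNA the levels were 686, 513 and 619 CPM in control, 541, 497 and 539 with LPS and 726, 494 and 757 with LPS+torin1. The polysome torin1 change of 0.35 ± 0.18 passed narrowly (adjusted p = 0.233), was -0.01 in experiment 2, and was not called with DESeq2 (adjusted p = 0.269), with its size factors in edgeR (adjusted p = 0.260), with only the LPS and LPS+torin1 libraries (adjusted p = 0.254), without experiment 1 (adjusted p = 0.599) or without experiment 3 (adjusted p = 0.693).

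**Figure D3:**
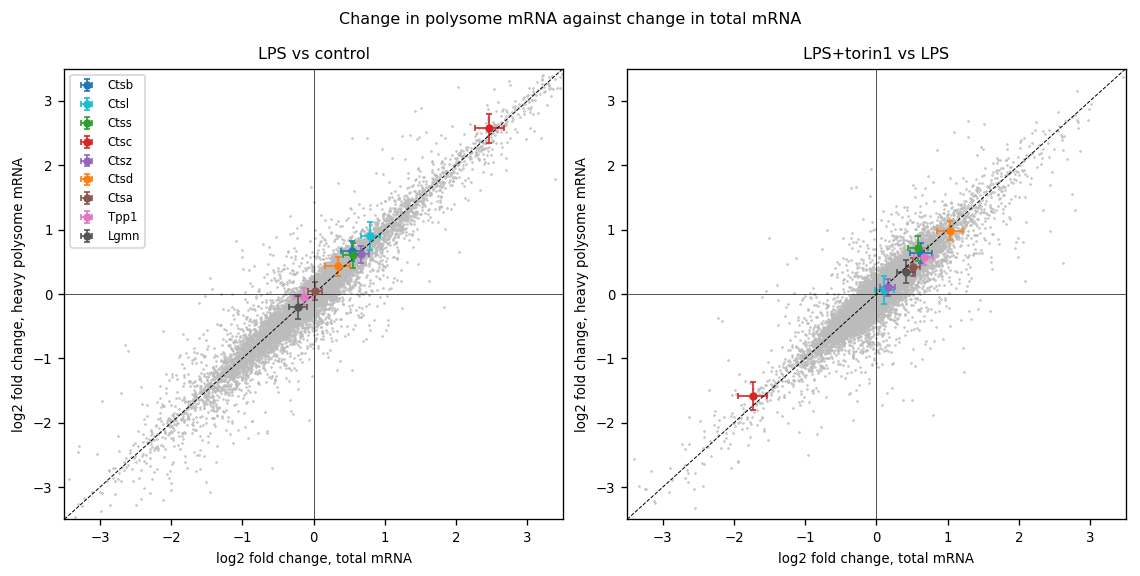
Log2 fold change in heavy polysome mRNA against that in total mRNA for LPS against control (left) and LPS+torin1 against LPS (right), after TMM scaling; coloured points are the 9 protease mRNAs with ± SE on both axes, grey points the other genes within the axes, and the dashed line equal change. All 9 lie near the line in both panels, with Ctsc far up on the left and far down on the right.

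Whether a polysome change exceeded the change in total mRNA, a change in translation efficiency, was tested through an interaction term in a fit of all 18 libraries together, and a call also needed a fold of 1.2. That fit did not pair the total and polysome libraries of a lysate. With LPS against control, 0 members and 0% of all genes were called in either direction. With LPS+torin1 against LPS, and with LPS+torin1 against control, the calls were again 0 members and 0% of all genes higher or lower. Without experiment 2 the last of these comparisons called 430 genes, 5.35% of them higher and none of them a member, while the other 2 comparisons, and all 3 without experiment 1 or experiment 3, still called 0. At an unadjusted p under 0.05 the same test gave 44, 110 and 145 genes in the 3 comparisons, none of them a member. Each count is below the share of 0.05 of the 11243 genes that would pass with no change at all. The unpaired test was thus conservative, and its 0 calls do not show that efficiency was unchanged. DESeq2 called 1, 13 and 1 genes, and the fit with the lysate as a block 0, 25 and 3, also without a member. With its own method the study called translation efficiency changes in a subset of mRNAs, including M6pr, Lamp2 and Cln3. The members' efficiency differences ran from -0.06 to 0.13 with LPS and from -0.12 to 0.13 with torin1 (log2). The size of these values depended on the method. In an analysis of partial variance, the kind of method the study used, the median member differed by 0.34 with LPS instead of 0.09 and by 0.14 with torin1 instead of -0.07. By that method Ctsd differed by 0.34 with LPS (adjusted p = 0.782) and 0.67 with torin1 (adjusted p = 0.788), Ctsc by 0.80 and -0.36, and Ctsz by 0.84 and 0.13, with signs turned for Ctsc and Ctsd with torin1 and for Ctsz in both. For Ctsc the LPS difference was 0.11, with a 95% interval from -0.55 to 0.77, and for Ctsz, the member with the narrowest interval, -0.06, from -0.37 to 0.26. For Ctsd the difference was 0.10 with LPS, from -0.37 to 0.57, and -0.07 with torin1, from -0.55 to 0.40. A change in translation efficiency within these intervals was not detectable by this test.

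Within a treatment, most of the mRNAs were at a higher relative level in heavy polysomes than in total mRNA, with Ctss and Ctsc on the other side. Each library is scaled to its own total, so these ratios place a gene relative to the average gene and do not give the share of its mRNA on polysomes. In control cells Ctsa, Ctsb, Ctsd, Ctsz and Lgmn were called higher in polysomes and Ctss lower, that is 5 higher and 1 lower, where 36.3% of all genes were called higher and 33.2% lower. With LPS 7 were higher and 1, Ctss, lower, where 34.1% and 31.1% of all genes were, and Ctsc was not called. With LPS+torin1 the 3 mRNAs Ctsb, Ctsd and Ctsz were higher and 0 lower, where 27.8% of all genes were called in each direction. The other 104 lysosome pathway genes stood much the same way. Their median log2 ratios were 0.29, 0.25 and 0.19 in control, LPS and LPS+torin1, beside 0.22, 0.28 and 0.22 for the members. Of them 54, 50 and 47 were called higher and 19, 13 and 11 lower. With the lysate as a block, the counts of members called were 9, 8 and 6, since Ctsc, Ctsl and Tpp1 were added in control and Ctss, Lgmn and Tpp1 with LPS+torin1. Calls over all 11243 genes rose in the same step, from 7823 to 8991 in control, 7328 to 8647 with LPS and 6252 to 7926 with LPS+torin1.

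**Figure D4:**
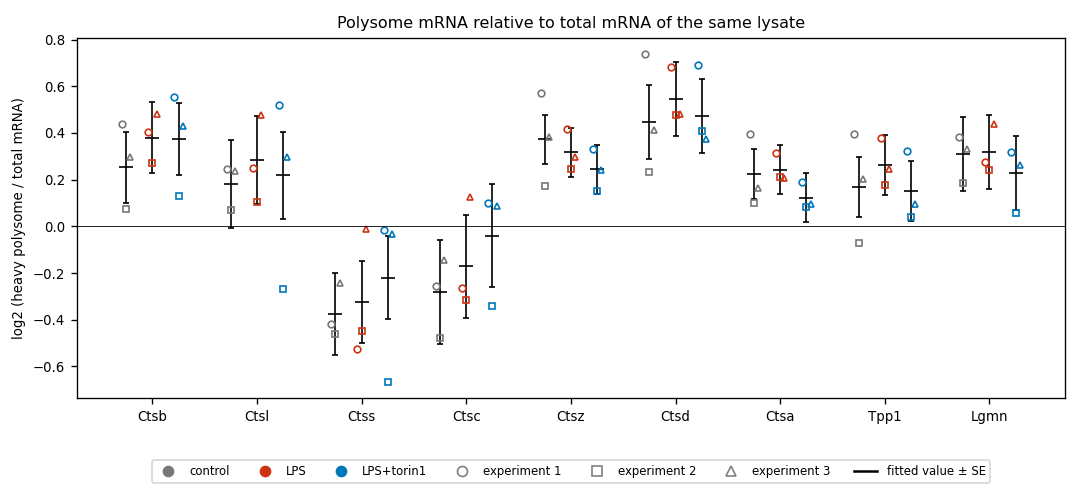
Log2 ratio of heavy polysome to total mRNA for each protease mRNA, by treatment (grey control, red LPS, blue LPS+torin1), with 1 symbol per lysate and bars for the fitted value ± SE. Ctsd has the highest fitted ratios, from 0.45 to 0.55, Ctss lies below 0 in all 9 lysates, and experiment 2 with LPS+torin1 is the lowest lysate for Ctsl and Ctss.

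Ctsd had the highest ratio, at 0.74, 0.23 and 0.41 in the 3 control lysates, 0.68, 0.48 and 0.48 with LPS and 0.69, 0.41 and 0.37 with LPS+torin1. It was positive in each of the 9 lysates, and the fitted value was 0.45 ± 0.16 in control (adjusted p = 0.0273). Ctss was negative in each of the 9 lysates, from -0.67 to -0.01, with a fitted value of -0.37 ± 0.18 in control (adjusted p = 0.0884). The Ctsc ratio was -0.26, -0.48 and -0.15 in control, -0.26, -0.31 and 0.12 with LPS and 0.10, -0.34 and 0.09 with LPS+torin1, which spread over both signs. Experiment 2 had the lowest of the 3 ratios for 9 of 9 members in control, 7 with LPS and 8 with LPS+torin1. The members called in control, LPS and LPS+torin1 numbered 7, 7 and 5 without experiment 2, 3, 2 and 1 without experiment 1, and 4, 5 and 2 without experiment 3. Over all 11243 genes the calls were 7860, 6835 and 4947 without experiment 2, and 6162, 5501 and 5127 without experiment 1. Without experiment 3 they were 6666, 6598 and 5237, beside 7823, 7328 and 6252 with all 3 experiments.

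The levels of the members across the 18 libraries described at least 2 courses. The log2 CPM of Ctsd had a Pearson correlation of 0.94 with Ctsb, 0.92 with Ctsa and 0.90 with Tpp1, and of 0.04 with Ctsc. The correlation of Ctsc was highest with Ctsl, at 0.63, and lowest with Lgmn, at -0.36. Libraries of a lysate and of an experiment share their source, so these values are descriptions. Among all other genes, those most like Ctsd were Clcn7, which encodes the lysosomal chloride-proton exchanger (0.99), Csf2rb2 (0.97) and Lrp11 (0.96). Torin1 raised total Clcn7 mRNA by 1.33 on the log2 scale, next to 1.03 for Ctsd. Most like Ctsc were Slc30a7, a zinc transporter of the secretory pathway, Lipg, the endothelial lipase, and Etv6, a transcriptional repressor, each at 0.97. Most like Lgmn were Psap, the precursor of the saposins (0.86), Ttyh2 (0.86) and Slc15a4, a histidine and peptide transporter of endolysosomes (0.84), all looser likenesses than those of Ctsc and Ctsd.

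Of 12 other lysosomal proteases listed, 10 were counted. With LPS 1 was called higher and 2 lower in each pool, in polysome mRNA with a median change of 0.12 (log2), beside -0.03 over all genes. Ctsh, an aminopeptidase, was the one called higher, at 1.75 in polysome and 1.54 in total mRNA, and it was lower with torin1 by -0.87 and -1.24, as Ctsc was. Ctsf fell by 0.46 and Prcp, a prolylcarboxypeptidase, by 0.24 in polysome mRNA. With torin1 4 of the 10 were called higher in each pool, and 2 lower in total and 1 lower in polysome mRNA. Whether the 9 members and these 10 genes differ in how often they move was not tested.

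Among the 9 genes that sort lysosomal enzymes, the polysome mRNA of 2 was called higher and of 3 lower with LPS. M6pr, the cation-dependent mannose 6-phosphate receptor, rose by 0.80, and Gga2, an adaptor that carries it from the Golgi, and Sort1, the sorting receptor sortilin, fell by 1.23 and 0.93. Torin1 moved these 3 the other way in polysome mRNA, by -0.37, 0.99 and 0.42. Of the 5 counted inhibitors of 13 listed, 3 were called higher with LPS in both pools, including Cstb, a cytosolic inhibitor of cathepsins, at 0.63 in polysome mRNA, Serpinb6a at 0.50 and Ctla2b at 2.85. Ctla2b was lower with torin1 by -2.39, whereas Cstb was higher by 0.64. Of the 8 partners and substrates, Tlr7, a receptor that needs proteolysis to signal, rose by 0.64 and Grn, the progranulin precursor cut by these proteases, by 0.50, while Ifi30, the lysosomal thiol reductase, fell by 0.57. Neu1 and Glb1, the enzymes that Ctsa stabilises, were not called with LPS in either pool.

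The other 104 genes of the lysosome pathway, a list the study drew from the KEGG database, give the setting of the members. With LPS 38 were called higher and 30 lower in total mRNA, with a median of 0.05, and 27 and 23 in polysome mRNA, with a median of 0.08. With torin1 56 were called higher and 16 lower in total mRNA, with a median of 0.28, and 44 and 11 in polysome mRNA, with a median of 0.24. With LPS+torin1 against control the counts were 59 and 21 in total and 54 and 14 in polysome mRNA. The largest LPS changes of the list in polysome mRNA were those of Sgsh, the heparan sulfamidase, at -2.34, Litaf at 1.79 and Slc11a2, a metal transporter, at 1.76.

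The counted osteoclast markers rose with torin1, as did 6 of the 9 protease mRNAs, while Ctsc fell and Ctsl and Ctsz were not called. Of 5 markers listed, 3 had a row, Acp5, Ctsk and Dcstamp, and Calcr and Oscar had none. Ctsk is also one of the other lysosomal proteases listed above. Of the other 104 lysosome pathway genes, 56 were also called higher with torin1 in total mRNA, and 16 lower. Torin1 raised all 3 in both pools, with a median of 1.99 in total and 1.92 in polysome mRNA. Their summed level in total mRNA was 27.2 to 50.4 CPM in control, 40.2 to 75.8 with LPS and 125.4 to 211 with LPS+torin1, and in polysome mRNA 25.2 to 42.8, 36.6 to 74.5 and 140.3 to 206 CPM. In both pools the LPS+torin1 libraries were above all others. Whether these markers report a change of cell type here was not tested, nor was any part of such a change in the protease values. The 9 macrophage markers stood at 14252 to 15701 summed CPM with LPS and 13453 to 14943 with LPS+torin1 in total mRNA. In polysome mRNA the sums were 19087 to 22804 and 16741 to 20210 CPM. Single markers moved both ways with torin1, with 3 called higher and 3 lower in total mRNA, and 2 and 3 in polysome mRNA.

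Annotated neighbours limit some values. The library kit keeps strand, but whether the counting used it is not stated in the sources used here. Opposite-strand genes share 12.8% of the exon bases of Ctsb (Fdft1), 10.5% of those of Ctsa (Pltp) and 26.8% of those of Ctsl (Gm47123), whereas Ctsc, Ctss, Lgmn and Tpp1 share no exon bases with another gene. In the GRCm38 annotation of GENCODE release M21, Ctsc spans chr7:88278085-88310888, Ctsd chr7:142375911-142388038, Ctsb chr14:63122462-63145923, Ctsl chr13:64359337-64370890, Ctss chr3:95526786-95556403, Ctsz chr2:174427493-174439039, Ctsa chr2:164832873-164841032, Tpp1 chr7:105744811-105752235 and Lgmn chr12:102394084-102439813. Counts are over the exons of each gene.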

How the data were processed

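RAW264.7 cells from 3 independent experiments gave 9 lysates, each sequenced as total and as heavy polysome mRNA. The authors deposited raw counts per gene: ribosome-depleted stranded libraries were aligned to GRCm38 with HISAT2 and counted with featureCounts on an Ensembl annotation, protein-coding genes were kept, and genes with 0 counts in any sample were dropped. Replicate libraries of a group differed by more than sampling noise.

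From these counts, fits were made with edgeR 4.0.16 (quasi-likelihood test, TMM) in R 4.3.3, each RNA type with its 9 libraries and no block, and translation efficiency and polysome-to-total ratios with all 18. P-values were adjusted by Benjamini-Hochberg over 11243 genes, and calls used a false discovery rate of 0.25. Within an RNA type the p-values measure the spread between 3 experiments. The main fits of all 18 libraries took the total and polysome libraries of a lysate as independent. Their p-values and intervals therefore measure the spread of unpaired libraries within groups of RNA type and treatment. The study's anota2seq analysis was not repeated; its analysis of partial variance was computed with limma 3.58.1 as an alternative, and DESeq2 1.42.0 was another. The TMM fit, the fit with a block, DESeq2 and the analysis of partial variance were tested on simulated data. The other alternatives and the comparisons with torin1 were not tested in this way. CPM carry the TMM factors (0.875 to 1.18), and log2 CPM a pseudocount of 0.5. Intervals are 95%.

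The experiment numbers pair total and polysome libraries, which come from 1 lysate (correlation of deviations from group means 0.39 to 0.65), and pair the treatments in total mRNA, where every same-numbered pair correlated (mean 0.34, lowest 0.15). In polysome mRNA the pairs did so on average (0.29) but not in each case (lowest -0.09). Fits with a block were an alternative throughout. The block was the experiment within an RNA type, and the lysate for translation efficiency and polysome-to-total ratios.

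The members, gene lists and motifs were chosen with earlier results of these data known. All members are named. Of each other list, up to 3 genes called in polysome mRNA between LPS and control with the largest change and 1 sign in the 3 experiments are named, and genes most like a member are the 3 highest Pearson correlations over 18 libraries. Exon lengths and overlaps are from GENCODE M21, and promoters from the RefSeq table of GRCm38.p6.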

Additional observations from a re-analysis of the deposited data

How the results depend on the processing

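A block was run in every comparison, the experiment within an RNA type and the lysate between RNA types. It raised the members called between polysome and total mRNA with LPS+torin1 from 3 to 6, while calls over all genes rose from 6252 to 7926. It kept the count within 1.5 times in every other comparison, and changed the member calls named in the report and no others. At a false discovery rate of 0.05 the polysome-to-total calls fell to 2 in control, 2 with LPS and 1 with LPS+torin1. Over all genes 5521, 4841 and 3481 remained called. Leaving out 1 experiment at a time, the members called ranged from 2 to 7 for LPS+torin1 against LPS in polysome mRNA (3 without experiment 1, 2 without experiment 3), and for polysome against total mRNA from 3 to 7 in control, 2 to 7 with LPS and 1 to 5 with LPS+torin1. For LPS+torin1 against LPS in polysome mRNA, calls over all genes fell from 4322 to 1782 without experiment 1 and to 1187 without experiment 3. For polysome against total mRNA they ranged from 6162 to 7860 in control, 5501 to 6835 with LPS and 4947 to 5237 with LPS+torin1. Reversals came with library totals alone, for Ctsa with LPS (-0.34 in total and -0.31 in polysome mRNA), Ctsd with LPS in total mRNA (-0.026) and Lgmn with LPS+torin1 against control in total mRNA (-0.10). The TMM factors were 1.13 to 1.18 in control and 0.875 to 0.927 with LPS, and total RNA per cell was not measured. Scaling to Ppia, chosen after seeing the data, moved the median gene by -0.24 for LPS in polysome mRNA and by 0.17 and 0.30 for torin1 in total and polysome mRNA. It changed the share of higher genes among those called with torin1 from 50.9% to 73.6% and from 52.7% to 86.8%. Under it 8 members were called higher with torin1 in total and 7 in polysome mRNA. With TMM all 3 study controls, Actb, Ppia and B2m, were called lower with torin1 in polysome mRNA, so scaling to Ppia lifts every gene there. Upper quartile factors moved the median gene by -0.14 and -0.12 for LPS in total and polysome mRNA. Of 1323 member values under alternatives, 1222 kept their call or lack of one, 29 gained a call, 68 lost one and 4 reversed; among the 1222, 50 changed sign where neither value passed the test. Translation efficiency gave 0 member calls in every alternative run, while the analysis of partial variance, also added with a block after seeing the data, called 10, 21 and 14 of all genes without the block. The lowest count of any member was 2663.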

Other observations

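Beside the 9 proteases, a pair of lysosomal peptidases chosen after their values were seen, Dpp7 and Ctsk, rose with torin1 in LPS-treated cells without passing the test for LPS against control. Dpp7, a dipeptidyl peptidase, differed by 0.02 with LPS in total mRNA (log2 fold change, adjusted p = 0.939) and rose by 1.34 with torin1 in total mRNA and 1.16 in polysome mRNA. Ctsk, the collagen-degrading cathepsin of osteoclasts, differed by 0.60 with LPS in total mRNA (adjusted p = 0.291) and rose by 1.99 with torin1 in total mRNA and 2.14 in polysome mRNA.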
